A study of Mus musculus with 6 samples.

Results

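The matrix metalloproteinases (MMP), the ADAMTS enzymes and their tissue inhibitors (TIMP) were followed as 1 gene set through lungs of aged mice. Genes were taken by symbol, as every feature named Mmp, Adamts or Timp with a number (Mmp with an optional a or b, Timp only 1 to 4), which gave 45 of the 31054 features counted. They comprised 22 MMP genes, 19 ADAMTS genes and 4 TIMP genes. Cells were sequenced one by one from the 3' end of their transcripts (10x Genomics GEM-X), from lungs of 6 male C57BL/6 mice aged 21 months, with 1 library for each mouse. In 3 libraries, those labelled p16-DTR, the genotype was p16-CreERT2/R26-LSL-DTR. The other 3 are controls that carry p16-CreERT2 alone. In the first genotype a tamoxifen-inducible Cre under the p16 promoter switches on the diphtheria toxin receptor, so that toxin should remove cells that express p16. Both genotypes received tamoxifen for 5 days, then diphtheria toxin for 5 days after 2 weeks, and were sampled after 2 more weeks. Mice without tamoxifen or toxin were not analysed here, so all 6 libraries share the Cre, the tamoxifen and the toxin. Each library mixed 20000 sorted CD45- cells with 9000 CD45+ cells, so the share of blood-derived cells does not reflect that of the lung. Of retained cells, 27.6%, 29.7% and 33.8% were gated as blood-derived in libraries labelled p16-DTR and 21.5%, 24.8% and 26.3% in controls.

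MMPs are zinc-dependent proteases, secreted or membrane-bound, that are made as latent precursors and cleave collagens, elastin and other matrix proteins once activated. ADAMTS enzymes are secreted relatives with thrombospondin repeats, which process procollagens, cleave proteoglycans such as aggrecan and versican, or act on fibrillin microfibrils and von Willebrand factor. TIMPs bind the active site of these proteases, and TIMP3, which is held in the matrix, also inhibits several ADAMTS and ADAM enzymes. In the lung the balance of these proteins is known for its part in emphysema and fibrosis, and several MMPs and TIMPs are counted among the factors that senescent cells secrete.

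Values are given as CPM, the number of unique molecular identifiers (UMIs) of a gene per 1000000 UMIs of the same library or of the same cell type in that library. UMIs tag the 3' end of a transcript, so they were not divided by gene length. The retained cells numbered between 12323 and 15713 in a library, at 254200305 to 344421685 UMIs before filtering. Between 59 and 94 cell barcodes occurred in any pair of libraries, at most 0.586% of the smaller one. Control replicate 1 stood apart from the other controls, with a chi-square per degree of freedom of 255 and 321 against 80.4 between control replicates 2 and 3. Cdkn2a, the gene of p16, stood at 7.08, 8.56 and 7.30 CPM in libraries labelled p16-DTR and at 1.15, 2.59 and 2.83 in controls. It was thus higher, not lower, in every library of the genotype in which p16-expressing cells were to be removed, and directions below refer to the labels. With all retained cells summed, this difference did not reach an adjusted p under 0.05 (edgeR's quasi-likelihood test, adjusted p = 0.123). Of 85386 retained cells, 77062 were assigned to a cell type by marker genes and 9.75% stayed unassigned. Of these cell types, 19 held at least 50 cells in every library and were tested. Nothing in the labels ties the libraries to litters or batches.

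9 members of the set lie side by side on mouse chromosome 9 between 7272514 and 7699585 (GENCODE M21, GRCm38). They are Mmp13, Mmp12, Mmp1b, Mmp3, Mmp10, Mmp8, Mmp27, Mmp20 and Mmp7. The cluster is known for genes that respond to AP-1, the transcription factor formed by Fos and Jun proteins. Promoter windows of RefSeq (build GRCm38.p6, 250 bases before to 50 after the start) were found for 31 of the 45 genes and were searched for the AP-1 heptamers TGACTCA and TGAGTCA. These are reverse complements of each other, so both strands were covered and no other motif was searched. A heptamer was present in 5.20% of all 32851 windows and in the windows of 6 of the 31 genes, all of them in the chromosome 9 cluster. They were Mmp1b, Mmp3, Mmp7, Mmp10, Mmp12 and Mmp13. Such a match describes the letters and does not show binding. The bases from 150 before the start to the start are shown 5′ to 3′ for 3 of these genes and for Mmp8 of the same cluster, with the heptamer in capitals, because cells of different kinds carried their transcripts. Mmp28 on chromosome 11, the MMP with edgeR calls below, is shown from 150 to 51 bases before its start.
Mmp3, chr9:7445672-7445821, plus strand: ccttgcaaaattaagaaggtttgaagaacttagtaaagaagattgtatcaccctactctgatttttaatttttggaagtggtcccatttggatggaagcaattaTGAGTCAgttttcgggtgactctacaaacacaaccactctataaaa
Mmp12, chr9:7347224-7347373, plus strand: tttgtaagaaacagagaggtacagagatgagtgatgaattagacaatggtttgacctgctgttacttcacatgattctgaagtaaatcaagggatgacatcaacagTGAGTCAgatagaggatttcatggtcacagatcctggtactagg
Mmp13, chr9:7272364-7272513, plus strand: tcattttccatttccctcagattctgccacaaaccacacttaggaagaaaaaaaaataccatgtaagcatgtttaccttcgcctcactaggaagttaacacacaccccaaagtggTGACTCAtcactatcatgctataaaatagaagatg
Mmp8, chr9:7558279-7558428, plus strand: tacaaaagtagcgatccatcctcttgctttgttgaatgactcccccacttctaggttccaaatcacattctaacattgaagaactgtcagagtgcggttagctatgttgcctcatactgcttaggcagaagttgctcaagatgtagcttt
Mmp28, chr11:83463091-83463190, minus strand: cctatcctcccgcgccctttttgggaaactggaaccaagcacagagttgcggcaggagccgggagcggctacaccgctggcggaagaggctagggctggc
The heptamer began 46 bases before the start in Mmp3, 44 in Mmp12 and 35 in Mmp13. Mmp12 has 2 windows, and the other one, at the earlier start, held no heptamer. G and C made up 35.3% of the printed bases of Mmp3, 40% of Mmp12, 38.7% of Mmp13 and 42.7% of Mmp8, against 65% of Mmp28.

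The members divided the lung between them, with most of the set carried by mesenchymal cells. The highest mean level lay in a fibroblast, smooth muscle, pericyte or mesothelial type for 25 of 45 members, in blood-derived cells for 13, in epithelium for 4 and in endothelium for 3. This tally includes genes whose leading type rests on few UMIs. Among the blood-derived ones, Mmp7 and Mmp20 had 20 UMIs each in all retained cells, Mmp1b 29 and Mmp10 90. Among the mesenchymal ones, Mmp21 had 125 and Adamts16 180. For 21 of 45 members the 6 libraries of the leading type all lay above the 6 libraries of the next type. These levels describe the cells and were not tested. Adventitial fibroblasts led for 10 members, more than any other type. The map of levels by cell type shows these blocks.

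**Figure D1:**
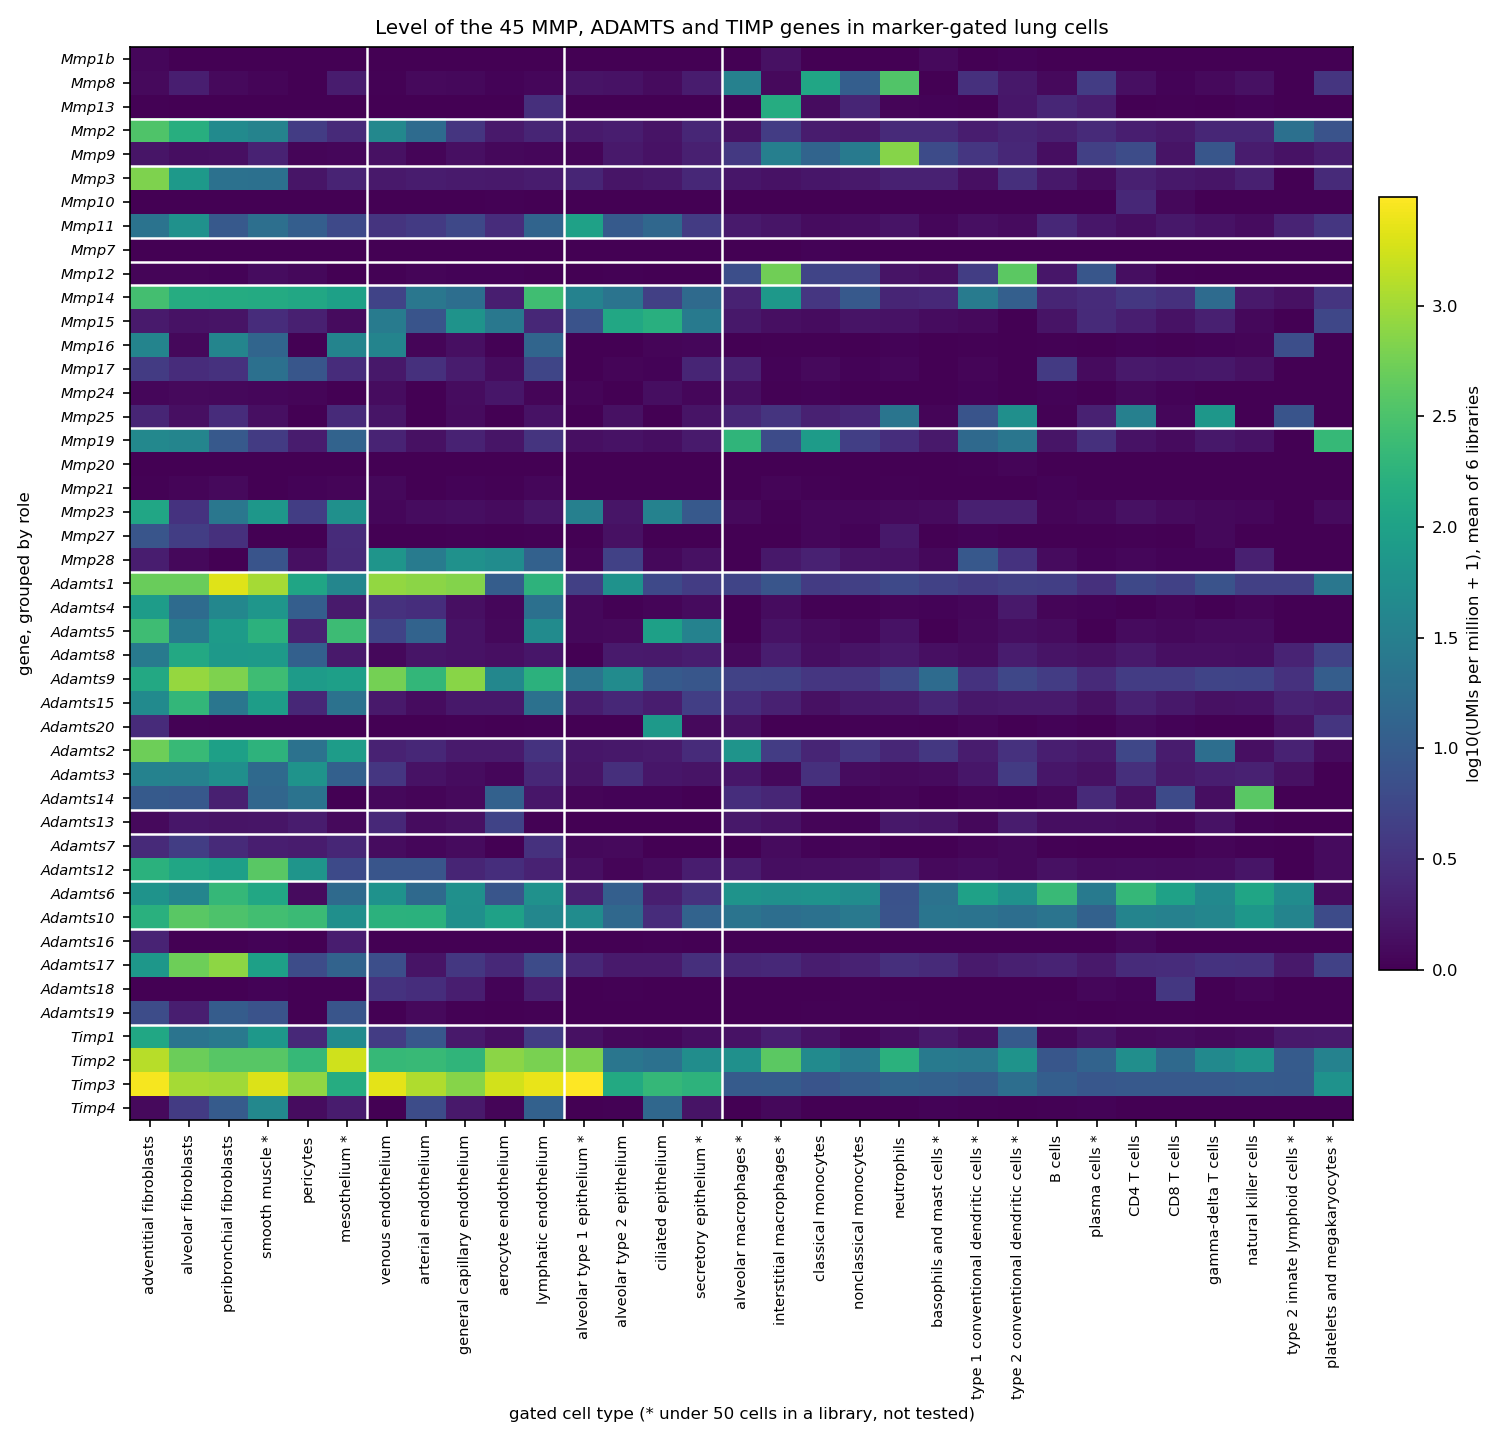
Mean level of each of the 45 genes (rows, grouped by role, white lines between roles) in 31 marker-gated cell types (columns), as log10 of CPM plus 1 over 6 libraries. Mesenchymal columns at the left hold the top level of 25 genes, while Mmp8 and Mmp9 stand out in neutrophils, Mmp13 in interstitial macrophages, and Mmp12 in interstitial macrophages and type 2 conventional dendritic cells.

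Among the collagenases, Mmp8, known as neutrophil collagenase, was highest in neutrophils, at 315 to 399 CPM, and next in classical monocytes, at 75.8 to 148. Mmp13, which cleaves fibrillar collagen and was chosen here after its values were seen, reached 65.0 to 203 CPM in interstitial macrophages. No other gated type exceeded 11.7 in any library. Of the gelatinases, which cleave denatured and basement membrane collagen, Mmp9 marked neutrophils at 633 to 886 CPM. Mmp2 instead was highest in adventitial fibroblasts, at 313 to 400, ahead of alveolar fibroblasts at 107 to 231. The stromelysin Mmp3, a broad protease that also activates other MMPs, was found in adventitial fibroblasts at 555 to 773 CPM and in alveolar fibroblasts at 42.05 to 127. Mmp3, Mmp13 and Mmp8 lie in 1 stretch of chromosome 9, and they led in fibroblasts, macrophages and neutrophils in that order. Mmp12, the macrophage elastase, stood at 303 to 721 CPM in interstitial macrophages and at 88.9 to 1047 in type 2 conventional dendritic cells, ranges that overlap. Matrilysin, Mmp7, was near absent, with 20 UMIs in all retained cells. Among membrane-type MMPs, Mmp14, which activates pro-MMP2 at the cell surface, was highest in adventitial fibroblasts, at 269 to 300, and in lymphatic endothelium, at 205 to 367. Of the other MMPs, Mmp19 had the most UMIs and its highest level in platelets and megakaryocytes, at 161 to 245 CPM, with alveolar macrophages next at 99.0 to 323. Platelets and megakaryocytes were shallow, at a median of 1826.5 UMIs a cell.

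Adamts9, a versican-cleaving enzyme, had the most UMIs of all ADAMTS genes and was highest in alveolar fibroblasts, at 642 to 1148 CPM. General capillary endothelium followed at 621 to 1008, and these ranges overlap. Adamts1, another protease of aggrecan and versican, was highest in peribronchial fibroblasts, at 1369 to 2475, with smooth muscle next at 871 to 1227. Adamts5, the main aggrecanase of mouse cartilage, did not separate adventitial fibroblasts, at 182 to 329, from mesothelium, at 224 to 282. Of the enzymes that remove the amino-terminal propeptide of fibrillar procollagens, Adamts2 was highest in adventitial fibroblasts, at 441 to 601 CPM. Its relative Adamts14, chosen after its values were seen, was highest in natural killer cells, at 345 to 452, where pericytes came next at 11.4 to 47.3. Adamts13, which trims von Willebrand factor, was low everywhere and led in aerocyte endothelium at 2.71 to 4.81 CPM. Adamts12, which cleaves cartilage oligomeric matrix protein, led in smooth muscle at 242 to 535. Adamts10, which binds fibrillin microfibrils, was highest in alveolar fibroblasts at 362 to 438, overlapping peribronchial fibroblasts at 216 to 452. Adamts17 was highest in peribronchial fibroblasts at 575 to 1091, overlapping alveolar fibroblasts at 392 to 652. Adamts20, also chosen after its values were seen, was found at 51.1 to 101 CPM in ciliated epithelium, while no other type exceeded 14.8 in any library.

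Timp3 was the most abundant transcript of the set, with 1332637 UMIs. Its level was 2779 to 3530 CPM in alveolar type 1 epithelium, a shallow type at a median of 2334 UMIs a cell, and 2358 to 3062 in adventitial fibroblasts. These ranges overlap. In B cells, where Timp3 can serve as a gauge of free RNA, 12.3% of cells held a Timp3 UMI at a median of 12853.5 UMIs, against 98.4% of adventitial fibroblasts at a median of 31725. Timp2, which also takes part in activating MMP2, was highest in mesothelium, at 1453 to 1936, above adventitial fibroblasts at 1246 to 1365. Timp1, an inducible inhibitor, led in adventitial fibroblasts at 101 to 134 CPM, and Timp4, the least abundant, in smooth muscle at 28.8 to 53.9.

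The first comparison asked whether the whole mixture of lung cells differed between the labels. With all retained cells of a library summed, none of the 42 members that passed the filter on low counts was called. edgeR's quasi-likelihood test with Benjamini-Hochberg adjustment over all genes called 0% of 21410 genes at an adjusted p under 0.05. At an unadjusted p under 0.05 the test marked 8 of the 42 members, beside 22.7% of all genes. DESeq2 called 5 of the 42 members, beside 11.7% of all genes. The groups did not overlap for 13 of the 42 members, or 31.0%, against 30.9% of all genes, with 2 members above and 11 below the controls. The median log2 fold change of the members was -0.14, beside -0.01 for all genes tested. Mmp1b, Mmp7 and Mmp20 did not pass the filter. In such sums fewer cells of a type and less RNA per cell cannot be told apart.

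**Figure D2:**
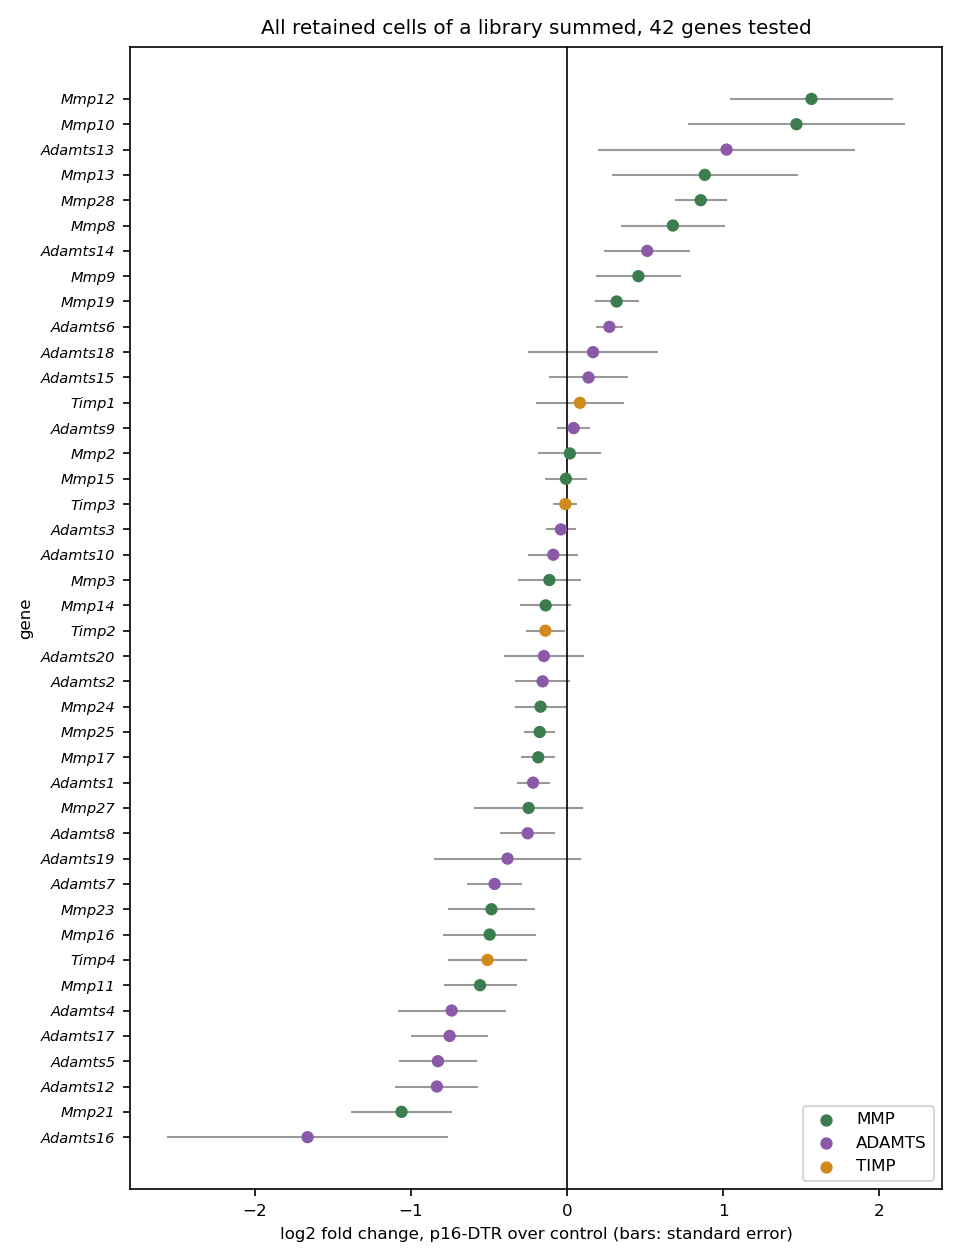
Log2 fold change of libraries labelled p16-DTR over controls for the 42 members tested in the summed cells of each library, with edgeR standard errors as bars and colours for the 3 families. No gene passes the adjusted threshold, Mmp12 and Mmp10 lie furthest to the right and Adamts16 furthest to the left.

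Mmp28 (epilysin), an MMP found in many resting tissues, came closest to a call. It stood at 18.5, 20.3 and 25.3 CPM in libraries labelled p16-DTR and at 10.0, 14.53 and 12.1 in controls, and the groups did not overlap. This was a log2 fold change of 0.86 ± 0.17 (SE, 3 against 3 libraries; edgeR adjusted p = 0.132), and DESeq2 gave an adjusted p of 0.000256. The elastase gene Mmp12 showed the largest difference among the genes always described, at 3.78, 12.9 and 16.8 CPM against 3.22, 3.26 and 5.20. Replicate 1 labelled p16-DTR lay among the controls, and the log2 fold change of 1.57 ± 0.52 was not called (edgeR adjusted p = 0.174; DESeq2 adjusted p = 0.0194). The interstitial macrophages that carry Mmp12 numbered 49, 96 and 153 cells in libraries labelled p16-DTR and 33, 44 and 42 in controls. Within these cells Mmp12 stood at 417, 303 and 679 CPM against 719, 392 and 721, and the groups overlapped. The part of the cell numbers in the Mmp12 result was not tested. Adamts5 stood at 22.3, 19.9 and 17.2 CPM in libraries labelled p16-DTR and at 49.9, 25.7 and 33.0 in controls, without overlap. Its log2 fold change was -0.83 ± 0.25 (edgeR adjusted p = 0.157), and its leading type, adventitial fibroblasts, made up 1.92% to 2.96% of retained cells against 2.79% to 6.15% in controls. The part of that share in the Adamts5 result was not tested.

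Adamts12 and Adamts17 were also lower without overlap in the summed cells and not called. Adamts12 stood at 41.4, 29.2 and 26.5 CPM against 80.6, 45.9 and 52.2 (edgeR adjusted p = 0.168), and Adamts17 at 134, 99.7 and 100.03 against 258, 138 and 185 (edgeR adjusted p = 0.174). The blood-derived share given above did not overlap between the groups either, and its part in these results was not tested.

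The TIMP genes and Mmp2, Mmp3, Mmp8, Mmp9, Mmp14 and Adamts2 overlapped between the groups in the summed cells, while Adamts1 did not. Timp3 stood at 837, 873 and 750 CPM in libraries labelled p16-DTR and at 853, 821 and 886 in controls, and Timp2 at 328, 324 and 277 against 410, 312 and 334. Timp1 ranged from 10.9 to 21.7 and Timp4 from 1.35 to 2.89 over the 6 libraries. Among the MMPs, Mmp2 ranged from 53.0 to 87.8, Mmp3 from 43.2 to 77.2 and Mmp14 from 58.6 to 92.3, each with its highest value in control replicate 1. The neutrophil genes Mmp8 and Mmp9 ranged from 10.46 to 29.8 and from 13.9 to 32.7, each with its highest value in replicate 1 labelled p16-DTR, which also held the most neutrophils, 856 against 359 to 700 in the others. Adamts2 ranged from 80.0 to 127, and Adamts1 stood at 338, 352 and 295 against 359, 374 and 452 a log2 difference of -0.22 ± 0.11 (edgeR adjusted p = 0.267).

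The second comparison was made within cell types, where the question is whether cells of the same kind differed. Over the 19 types tested, 312 member and cell type pairs passed the filter, and 9 of them were called by edgeR at an adjusted p under 0.05 within the cell type. That is 2.88% of the pairs, beside 0.683% over all genes in the same 19 types. By the weaker measure of groups that did not overlap, the members' 19.9% lay near the 18.9% of all genes. The calls fell on 7 genes and 4 cell types, 6 of them higher under the p16-DTR label and 3 lower. By family they comprised 5 of 19 ADAMTS genes, 1 of 22 MMP genes, of which 17 were tested in a type, and 1 of 4 TIMP genes. Among the ADAMTS genes, Adamts19 in peribronchial fibroblasts passed the filter on low counts only through the controls, where it was high. Peribronchial fibroblasts held 4 of the calls, pericytes 2, venous endothelium 2 and general capillary endothelium 1. DESeq2 called 24 of the 312 pairs, beside 2.36% over all genes, and 10 of the 24 lay in alveolar fibroblasts, where 34 members were tested. Elsewhere in the text, called means called by edgeR unless DESeq2 is named. The count depended on single libraries. It was 3 without control replicate 1 and 5 without control replicate 2, beside 0.119% and 0.438% of all genes. Without replicates 1, 2 and 3 labelled p16-DTR it was 15, 3 and 2, beside 0.666%, 0.4% and 0.116% of all genes.

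**Figure D3:**
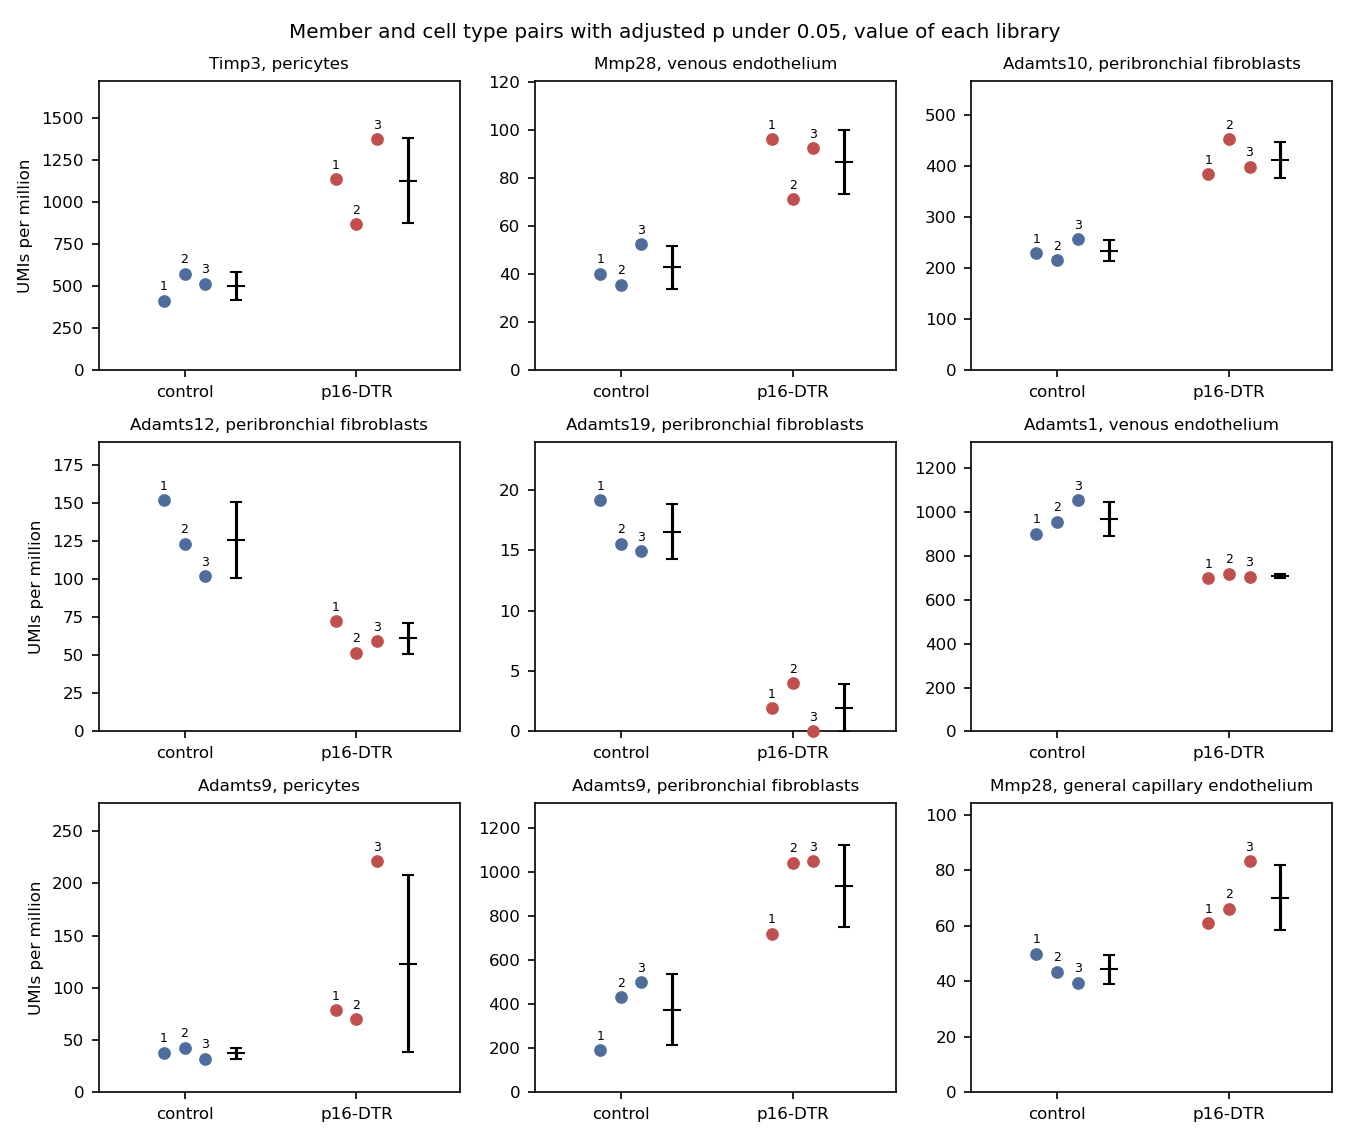
CPM in each library (dots numbered by replicate) for the 9 called pairs of gene and cell type, with the mean and SD of 3 libraries beside them on axes that start at 0. In each panel the 3 libraries labelled p16-DTR lie on 1 side of the 3 controls, and replicate 3 stands alone at 221 for Adamts9 in pericytes.

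No collagenase, gelatinase, stromelysin, elastase or membrane-type MMP was called by edgeR in any tested type. These roles gave 4, 16, 18, 1 and 47 tests, and a count of 0 in 86 tests lies near the 0.683% called over all genes. At an unadjusted p under 0.05 edgeR marked 15 of the 86, or 17.4%, beside 13.4% over all genes. DESeq2 called 2 of the 86, beside 2.36% over all genes in the 19 tested types together. Both lay in alveolar fibroblasts, Mmp2 (0.55, adjusted p = 0.0383) and Mmp25 (-1.70, adjusted p = 0.00516). All 4 collagenase tests were of Mmp8, and the single elastase test, of Mmp12, was in nonclassical monocytes. Mmp12 and Mmp13 were not tested in interstitial macrophages, which had fewer than 50 cells in some libraries. In neutrophils, the highest type for both genes, Mmp8 stood at 399, 370 and 329 CPM in libraries labelled p16-DTR and at 315, 335 and 358 in controls, and Mmp9 at 728, 736 and 633 against 690, 886 and 669. Both overlapped. In adventitial fibroblasts, Mmp2 stood at 341, 348 and 400 against 323, 323 and 313, all higher but not called (log2 fold change 0.19 ± 0.08, edgeR adjusted p = 0.344), in a type where 0% of 14037 genes were called and 19.1% did not overlap. Mmp14 overlapped there, at 282, 269 and 291 against 278, 274 and 300. Mmp3 overlapped as well, at 757, 591 and 667 against 578, 773 and 555. In peribronchial fibroblasts Mmp3 stood at 86.7 CPM in replicate 1 labelled p16-DTR and at 2.66 to 10.53 in the other 5 libraries, so that its log2 fold change of 2.90 ± 0.91 rested on 1 library (edgeR adjusted p = 0.142).

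Mmp28 was the one MMP called by edgeR, in 2 endothelial types. In venous endothelium it stood at 96.1, 71.2 and 92.4 CPM in libraries labelled p16-DTR and at 40.1, 35.7 and 52.6 in controls, with every labelled library above every control. The gene lies at chr11:83440768-83463071, minus strand. The log2 fold change was 1.02 ± 0.15 (SE; edgeR adjusted p = 0.0120), a 2.03-fold difference, in a type where 3.39% of 12020 genes were called and 22.7% did not overlap. Without replicate 3 labelled p16-DTR the value was 0.98 (edgeR adjusted p = 0.0520). In general capillary endothelium Mmp28 stood at 61.0, 66.2 and 83.3 against 49.9, 43.4 and 39.6, again without overlap. There the log2 fold change was 0.71 ± 0.12 (edgeR adjusted p = 0.0433), beside 1.81% of 15748 genes called and 29.3% without overlap. Leaving out any 1 of the 6 libraries ended that call, at log2 fold changes of 0.56 to 0.80. It also ended with doublets kept (edgeR adjusted p = 0.0585), with a replicate block (edgeR adjusted p = 0.111) and with adjustment over all cell types (edgeR adjusted p = 0.0731). Aerocyte endothelium, with 47.0, 55.1 and 42.1 against 46.3, 51.7 and 47.8, overlapped (log2 fold change 0.03 ± 0.10, edgeR adjusted p = 0.915). Arterial endothelium, at 20.3, 30.8 and 51.2 against 27.6, 18.9 and 14.7, overlapped as well. The tests of whether the difference in venous or in general capillary endothelium departed from that in all other gated cells gave differences of 0.20 ± 0.22 and 0.38 ± 0.28, neither called (edgeR adjusted p = 0.833 and 0.571), in tests that called 0.431% and 0% of genes.

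Sums of some other marker lists differed between the labels within these endothelial gates, and not all lists examined are given. In venous endothelium 22.7% of all genes did not overlap. In venous endothelium the 9 adventitial fibroblast markers summed to 54.6 to 62.2 CPM in libraries labelled p16-DTR and to 79.4 to 119 in controls, with 3 of 9 lower and none at 0. The 8 general capillary markers summed to 5018 to 5679 against 4762 to 4975, with 4 of 8 higher and 1 lower. In general capillary endothelium the 8 lymphatic markers summed to 1018 to 1147 against 619 to 823, with 1 of 8 higher and 1 lower, and the 9 venous markers to 760 to 865 against 637 to 714, with 3 of 9 higher. Mmp28 in lymphatic endothelium was 7.77 to 13.4 CPM, below its level in the general capillary gate. The 9 aerocyte markers summed to 4720 to 4905 against 5063 to 5171 in the same gate, with 5 of 9 lower and 1 higher. Of 14 dissociation stress genes, 7 were lower there without overlap and 2 of them, Egr1 and Btg2, were called. Of all genes in general capillary endothelium, 29.3% did not overlap and 1.81% were called, in either direction. The part of these lists in the Mmp28 result was not tested.

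Adamts1 (chr16:85793827-85803113, minus strand) was lower in venous endothelium of libraries labelled p16-DTR. It stood at 700, 720 and 706 CPM there and at 901, 958 and 1055 in controls, without overlap. Its log2 fold change was -0.44 ± 0.08 (edgeR adjusted p = 0.0233). The call was lost without control replicates 2 or 3 and without each labelled replicate in turn, at -0.37 to -0.45 and edgeR adjusted p of 0.0570 to 0.0880. It was also lost with the strict gate (-0.37, edgeR adjusted p = 0.0550), with a replicate block (edgeR adjusted p = 0.0676) and with adjustment over all cell types (edgeR adjusted p = 0.0662). Adamts1 departed from its change in all other gated cells by -0.22 ± 0.10, which was not called (edgeR adjusted p = 0.505). Of 14 listed genes that respond quickly to tissue dissociation, 5 were called lower in venous endothelium and 1, Hspa1b, higher, beside 3.39% of all genes. Egr1 among them stood at 614, 798 and 874 CPM against 2012, 1366 and 1516, and Zfp36 at 642, 681 and 692 against 1054, 1002 and 1002. Over the 19 tested types this list gave 15 lower calls and 1 higher in 260 tests. Egr1 and Btg2 were also called lower in arterial, lymphatic and general capillary endothelium, where Adamts1 was not called. The part of this list in the Adamts1 result was not tested. In general capillary endothelium Adamts1 stood at 570, 586 and 522 against 713, 697 and 1028, without overlap, as for 29.3% of genes there, and not called (log2 fold change -0.50 ± 0.14, edgeR adjusted p = 0.0971). Adamts9, the related versicanase, stood at 524, 450 and 398 CPM in venous endothelium against 571, 658 and 887, also without overlap and not called (log2 fold change -0.61 ± 0.16, edgeR adjusted p = 0.0713).

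**Figure D4:**
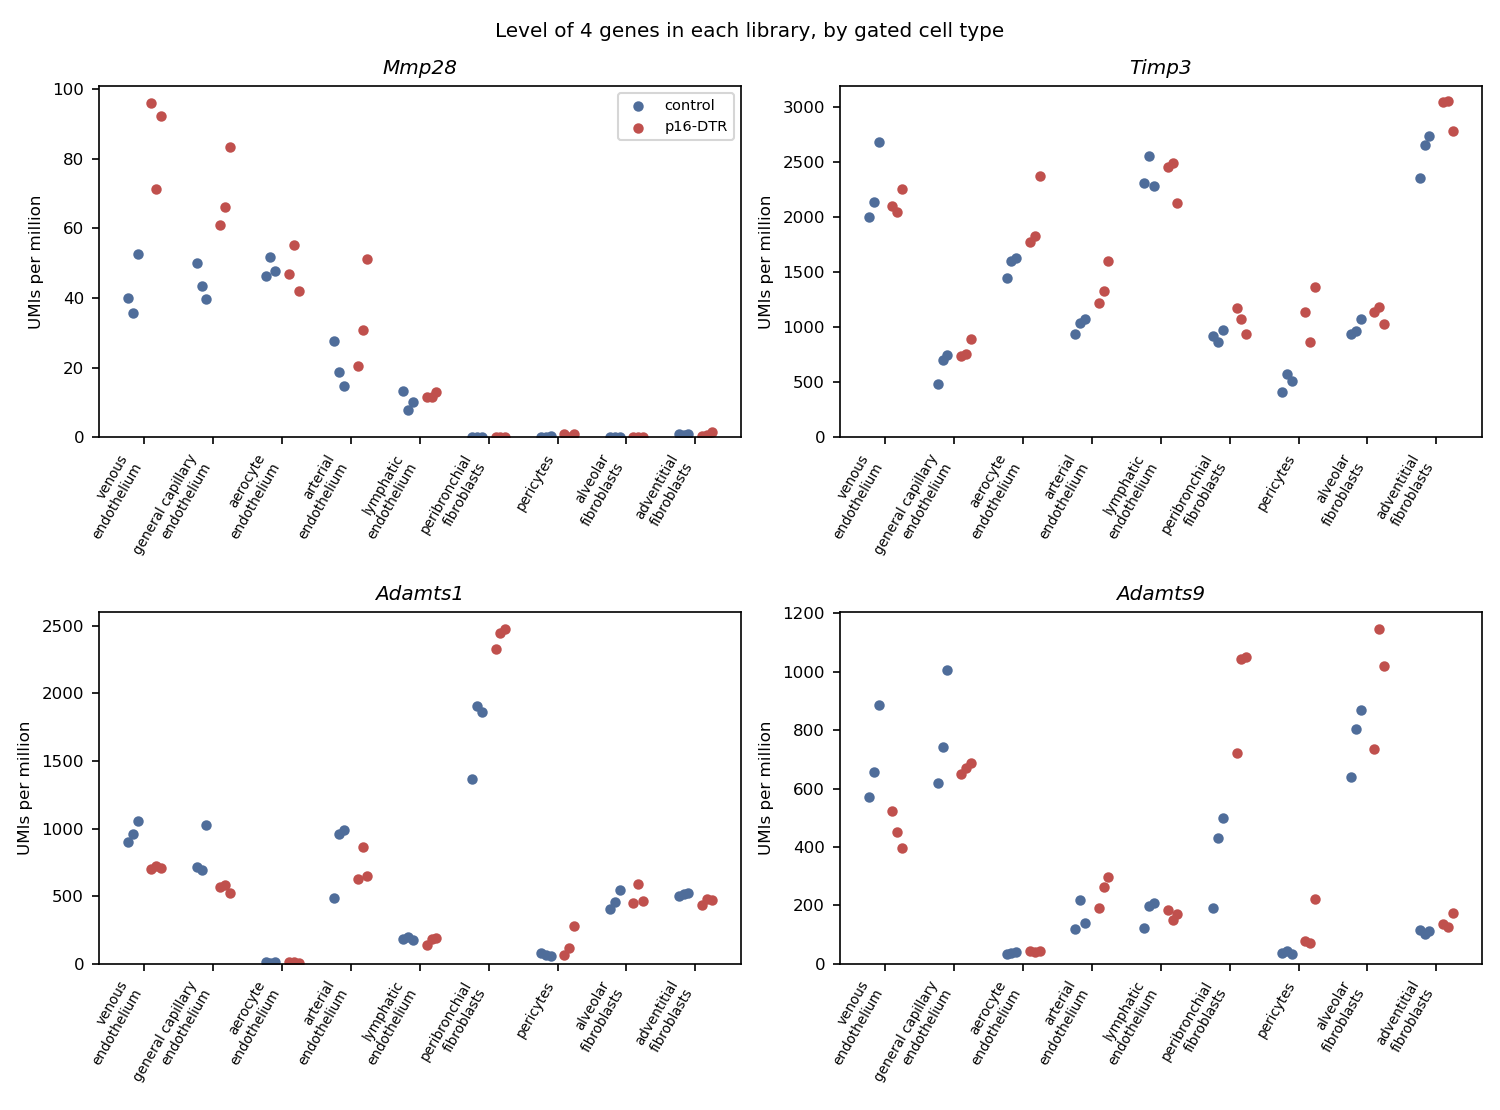
CPM of Mmp28, Timp3, Adamts1 and Adamts9 in each library, control and p16-DTR side by side, for 5 endothelial types, 3 fibroblast types and pericytes. Adamts1 and Adamts9 lie lower in venous endothelium and higher in peribronchial fibroblasts of libraries labelled p16-DTR.

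Peribronchial fibroblasts, known here by markers such as Lgr6 and Hhip and numbering 79 to 193 cells in a library, held the most edgeR calls. Of 24 members tested, 4 were called, beside 1.66% of 10699 genes. Of the 4, Adamts19 passed the filter on low counts only through the controls. The groups did not overlap for 9 of the 24 members, or 37.5%, beside 22.1% of all genes there. The median log2 fold change of the 24 was 0.03, beside 0.00 for all genes tested, with 13 above 0 and 11 below.

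Adamts10 (chr17:33524204-33553782, plus strand) stood at 384, 452 and 398 CPM in peribronchial fibroblasts of libraries labelled p16-DTR and at 229, 216 and 256 in controls, with no overlap and little spread within a group. Its log2 fold change was 0.85 ± 0.11 (edgeR adjusted p = 0.0137). The call was lost without control replicate 1 (0.83, edgeR adjusted p = 0.0610) and without replicates 2 (0.77, edgeR adjusted p = 0.0503) or 3 (0.88, edgeR adjusted p = 0.0675) labelled p16-DTR. Against all other gated cells the difference was larger by 0.96 ± 0.16 on the log2 scale (edgeR adjusted p = 0.00551). That test called 0.712% of 19936 genes.

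Adamts9 (chr6:92772699-92943492, minus strand) was also higher in peribronchial fibroblasts, at 722, 1044 and 1051 CPM against 193, 432 and 500 in controls. Control replicate 1 was the lowest library and the groups did not overlap. Its log2 fold change was 1.37 ± 0.29 (edgeR adjusted p = 0.0418). It was not called without control replicates 1 (1.04, edgeR adjusted p = 0.0610) or 2 (1.48, edgeR adjusted p = 0.0950), nor without replicates 2 (1.27, edgeR adjusted p = 0.139) or 3 (1.29, edgeR adjusted p = 0.141) labelled p16-DTR. DESeq2 gave an adjusted p of 0.0675, and the call was also lost with doublets kept (edgeR adjusted p = 0.0550), with the strict gate (edgeR adjusted p = 0.0583) and with adjustment over all cell types (edgeR adjusted p = 0.0774). Its difference exceeded that in all other gated cells by 1.41 ± 0.20 on the log2 scale (edgeR adjusted p = 0.00273), where Adamts9 stood at means of 421 against 426 CPM.

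Adamts1, which had its highest level of all types here, stood at 2330, 2447 and 2475 CPM against 1369, 1907 and 1866, without overlap. The log2 fold change of 0.54 ± 0.13 was not called (edgeR adjusted p = 0.0655), but it exceeded the change in all other gated cells by 0.81 ± 0.14 (edgeR adjusted p = 0.00688). In those cells, summed over types, Adamts1 stood at means of 310 against 383 CPM, and their mix of cell types enters the difference.

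In the same cells 2 members were lower. Adamts12 (chr15:11064790-11349231, plus strand) stood at 72.3, 51.8 and 59.2 CPM in libraries labelled p16-DTR and at 152, 123 and 102 in controls. The log2 fold change was -0.99 ± 0.17 (edgeR adjusted p = 0.0228). It departed from the change in all other gated cells by -0.17 ± 0.17, which was not called (edgeR adjusted p = 0.842). The call was lost without control replicates 1 or 2 and without replicates 2 or 3 labelled p16-DTR, at -0.84 to -1.004 and edgeR adjusted p of 0.0592 to 0.0935. Adamts19, an ADAMTS gene whose substrate is not established, stood at 1.90, 3.99 and 0 CPM against 19.2, 15.6 and 14.9, from 5, 6 and 0 UMIs against 56, 30 and 34. Its log2 fold change was -3.02 ± 0.50 (edgeR adjusted p = 0.0228), and the same 4 libraries ended the call when left out, at -2.56 to -3.73. In this gate Adamts19 passed the filter on low counts only through the controls, the group where it was high. The call therefore gives no support of its own. In Leiden clusters named from the same markers Adamts19 differed by -0.56 (edgeR adjusted p = 0.656). It departed from its change in all other gated cells by -2.77 ± 0.68, which was not called (edgeR adjusted p = 0.0613).

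Sums of some marker lists of other cells differed between the labels within the peribronchial gate, where 22.1% of all genes did not overlap. Not all lists examined are given. The 9 arterial markers summed to 211 to 322 CPM in libraries labelled p16-DTR and to 466 to 701 in controls, with 3 of 9 lower and none at 0, against 4061 to 5719 in arterial cells themselves. The 9 alveolar fibroblast markers summed to 211 to 240 against 264 to 352, with 2 of 9 lower. Other lists were higher, as the 7 general immune markers summed to 26.6 to 70.4 against 22.4 to 24.3, with 1 of 7 higher, and the 8 classical monocyte markers to 50.01 to 50.98 against 31.1 to 35.6, with 1 of 8 higher. The 8 mesothelial markers summed to 16.7 to 21.7 against 9.66 to 16.4, with none of them without overlap and Msln and Lrrn4 at 0. The gate's own 8 markers summed to 11149 to 11908 against 12416 to 13484, with 4 of 8 lower. Their part in the 4 calls was not tested.

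**Figure D5:**
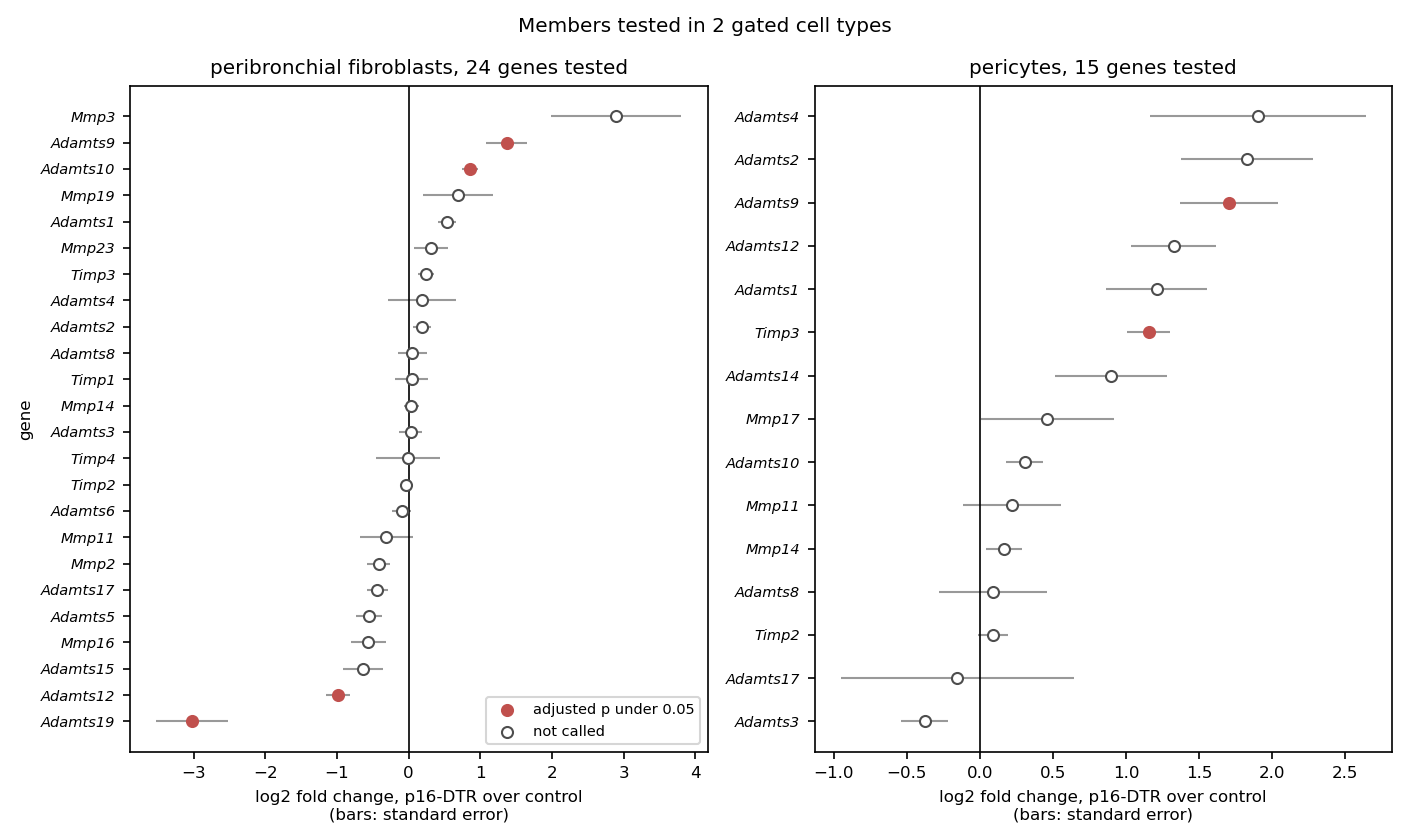
Log2 fold change, libraries labelled p16-DTR over controls, for each member tested in peribronchial fibroblasts (24 genes) and in pericytes (15 genes), with edgeR standard errors as bars and filled points for adjusted p under 0.05. The peribronchial values spread to both sides of 0, while 13 of 15 pericyte values lie above it.

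In pericytes, the mural cells of capillaries, Timp3 was called at the smallest adjusted p of the set. Timp3 (chr10:86300372-86349506, plus strand) stood at 1135, 868 and 1371 CPM in libraries labelled p16-DTR and at 413, 574 and 513 in controls. Every labelled library lay above every control, a 2.23-fold difference or 1.16 ± 0.15 on the log2 scale (edgeR adjusted p = 0.00273), where 0.737% of 9636 genes were called. The groups did not overlap for 15.8% of all genes in pericytes. The call held without each library in turn, at 1.00 to 1.30. In Leiden clusters the log2 fold change was 0.67 and was not called (edgeR adjusted p = 0.259). Against all other gated cells, where means were 801 and 842 CPM, the difference was larger by 1.16 ± 0.18 (edgeR adjusted p = 0.000462), in a test that called 1.11% of 19827 genes. Those other cells were summed over types, so their mix of cell types enters this difference.

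Timp3 was called in none of the 5 endothelial types. It stood at 1780, 1831 and 2376 CPM in aerocyte endothelium against 1446, 1601 and 1632 (log2 fold change 0.39 ± 0.10, edgeR adjusted p = 0.0955), and at 1222, 1334 and 1607 in arterial endothelium against 939, 1039 and 1078 (0.45 ± 0.12, edgeR adjusted p = 0.191). Neither pair of groups overlapped, in types where 21.7% and 15.9% of all genes did not overlap. General capillary endothelium overlapped, at 736, 755 and 890 against 482, 707 and 745 (0.34 ± 0.16, edgeR adjusted p = 0.251). Venous endothelium overlapped too, at 2106, 2053 and 2262 against 2005, 2136 and 2686, as did lymphatic endothelium, with log2 fold changes of -0.07 and -0.03.

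Adamts9 was higher in pericytes too, at 78.6, 70.3 and 221 CPM against 37.9, 42.8 and 32.3, from 84, 75 and 248 UMIs against 63, 91 and 69. Replicate 3 labelled p16-DTR stood far above the other 5 libraries. The log2 fold change was 1.70 ± 0.34 (edgeR adjusted p = 0.0333), and 0.98 without that replicate (edgeR adjusted p = 0.0196). Leaving out a control ended the call, at 1.59 to 1.82 with edgeR adjusted p of 0.118 to 0.191, and DESeq2 gave an adjusted p of 0.119. The call was also lost with Leiden clusters (1.08, edgeR adjusted p = 0.321), with doublets kept (1.44, edgeR adjusted p = 0.0913) and with adjustment over all cell types (edgeR adjusted p = 0.0533).

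Of the 15 members tested in pericytes, 13 had a log2 fold change above 0, with a median of 0.46 beside 0.00 for all genes tested there. edgeR called only Timp3 and Adamts9. DESeq2 also called 2 of the 15, of which Adamts9 was not 1, beside 2.36% over all genes in the 19 tested types together. Adamts12 stood at 56.1, 95.6 and 132 CPM against 19.9, 47.5 and 43.1 (log2 fold change 1.33 ± 0.29, edgeR adjusted p = 0.0544), with groups apart and the opposite sign to peribronchial fibroblasts. Adamts2 overlapped, at 10.3, 44.99 and 35.7 against 10.2, 4.23 and 11.2 (1.83 ± 0.45, edgeR adjusted p = 0.0820), and so did Adamts1, at 68.3, 115 and 281 against 81.2, 62.5 and 57.6 (1.21 ± 0.35, edgeR adjusted p = 0.148). Replicate 3 labelled p16-DTR was the highest library for 10 of the 15.

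The pericyte gate itself differed between the labels. It held 62, 67 and 67 cells in libraries labelled p16-DTR, or 0.448% to 0.474% of retained cells, and 115, 150 and 150 in controls, or 0.732% to 1.22%. The 8 smooth muscle markers summed to 1915 to 2158 CPM in the labelled libraries and to 1346 to 1459 in controls, with 4 of 8 higher and none at 0, against 23922 to 27295 in smooth muscle cells. Over the 6 libraries smooth muscle held Timp3 at 1617 to 2751 CPM and Adamts12 at 242 to 535, each above every pericyte value, and Adamts9 at 165 to 332. The 8 peribronchial fibroblast markers summed to 174 to 227 against 104 to 153, with 1 of 8 higher without overlap and Lgr6 at 0. The 8 general mesenchymal markers summed to 6416 to 7674 against 5927 to 6135, with 3 of 8 higher. Other lists were lower, as the 9 alveolar fibroblast markers at 729 to 746 against 755 to 889, with 1 of 9 lower and 2 higher. The 9 venous markers summed to 842 to 892 against 896 to 1010, with 2 of 9 lower. Not all lists examined are given, and 15.8% of all genes did not overlap in pericytes. The part of these lists and cell numbers in the pericyte results was not tested.

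Of the TIMPs as a group, 1 of 49 tests was called, the Timp3 result in pericytes, or 2.04%, beside 0.683% over all genes. Timp1 in alveolar fibroblasts stood at 16.7, 25.8 and 35.2 CPM against 16.5, 16.2 and 13.99, with the labelled libraries all higher and not called (log2 fold change 0.75 ± 0.23, edgeR adjusted p = 0.109). Timp2 stood there at 558, 514 and 573 against 470, 480 and 493 (0.21 ± 0.07, edgeR adjusted p = 0.127). In that type 1.45% of 16668 genes were called and 26.9% did not overlap. Timp1 in adventitial fibroblasts, its leading type, was at 126, 128 and 134 against 109, 113 and 101, also without overlap and not called (0.27 ± 0.07, edgeR adjusted p = 0.173). Timp4 in alveolar fibroblasts went the other way, at 2.83, 2.33 and 2.17 against 4.62, 3.35 and 3.05, without overlap and not called (-0.57 ± 0.19, edgeR adjusted p = 0.140). In ciliated and lymphatic cells Timp4 overlapped.

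By role, the aggrecanase and versicanase group had 3 calls in 62 tests, or 4.84%, 2 higher and 1 lower, beside 0.683% over all genes, and the procollagen propeptidases had none in 26. Adamts2 in adventitial fibroblasts stood at 565, 601 and 546 CPM in libraries labelled p16-DTR and at 441, 507 and 535 in controls, without overlap and not called (log2 fold change 0.21 ± 0.08, edgeR adjusted p = 0.321). Adamts5 in the same cells stood at 182, 203 and 273 against 329, 258 and 298, and overlapped because replicate 3 labelled p16-DTR lay above control replicate 2 (log2 fold change -0.43 ± 0.15, edgeR adjusted p = 0.295). The fibrillin-linked genes had 1 call in 35 tests, the genes that cleave cartilage oligomeric matrix protein 1 in 10, and Adamts13 none in 2. edgeR called no member in the other 15 tested types. DESeq2 called 10 of 34 members tested in alveolar fibroblasts, 1 of 32 in adventitial fibroblasts and 1 of 14 in aerocyte endothelium. Over all genes DESeq2 called 2.36% in the 19 tested types together, and its share in single types is not given here. The edgeR shares that follow are not a measure for these counts. By edgeR, the share of all genes called in these 15 types was 0% in 6 types and at most 1.45%, in alveolar fibroblasts. It was 0.00795% in B cells, 0.0173% in alveolar type 2 epithelium and 0.0662% in ciliated epithelium. It was 0.123% in arterial and 0.44% in lymphatic endothelium and 0.486% in CD4 T cells.

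Other genes of the pathway, 37 ADAMTS-like, ADAM, activator, inhibitor and substrate genes, gave 448 tests with 4 called higher and 7 lower, or 2.46%, beside 0.683% over all genes. Plat, the tissue plasminogen activator that starts the plasmin cascade upstream of MMPs, was higher in aerocyte endothelium, at 24.3, 16.98 and 22.1 CPM against 10.6, 9.31 and 10.2 (log2 fold change 1.10 ± 0.14, edgeR adjusted p = 0.0113), beside 1.14% of genes called there. In natural killer cells, where 0.835% of genes were called, Adam19, a membrane-bound sheddase, stood at 6.94, 13.5 and 14.2 against 0, 0.849 and 1.66 (3.32 ± 0.54, edgeR adjusted p = 0.0174). Adam19 passed the filter on low counts there only through the labelled libraries, where it was high. The membrane-anchored MMP inhibitor Reck was lower in the same cells, at 13.5, 12.3 and 11.9 against 30.5, 28.01 and 26.4 (-1.18 ± 0.19, edgeR adjusted p = 0.0187). Adamtsl2, an ADAMTS-like protein of fibrillin microfibrils, was higher in peribronchial fibroblasts beside Adamts10, at 126, 149 and 140 against 57.5, 89.2 and 67.6 (1.00 ± 0.16, edgeR adjusted p = 0.0228). In venous endothelium, Fn1 (fibronectin) and Papln (papilin) were lower, by log2 fold changes of -1.05 ± 0.21 and -1.22 ± 0.25, and Adamtsl4 was higher, by 0.80 ± 0.17 (edgeR adjusted p = 0.0311, 0.0348 and 0.0348). The other 4 lower calls, named after their values were seen, were Adamtsl1 in peribronchial fibroblasts (-0.89 ± 0.19, edgeR adjusted p = 0.0418), Adamtsl3 in venous endothelium (-1.14 ± 0.26, edgeR adjusted p = 0.0459), and Adamtsl5 and Pcsk5 in general capillary endothelium (-0.52 ± 0.08 and -0.62 ± 0.09, edgeR adjusted p = 0.0365 for both). The ADAMTS-like genes thus had calls in both directions within peribronchial fibroblasts and within venous endothelium.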

How the data were processed

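The authors deposited 1 matrix for each mouse with unnormalized UMI counts of genes in cells, made with Cell Ranger 8.0.1 on mm10 (per the submitters' processing notes and the file headers). Replicates were not pooled. The settings that called cells are not given in the sources used here.

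Cells needed 300 genes and 500 UMIs, with mitochondrial UMIs not above 15%, and predicted doublets (0.4% per 1000 barcodes) were removed. Each cell was assigned to 1 of 31 marker-defined types by its best mean marker score, with a minimum score of 0.3 and a lead of 0.1 over the next type (0.05 between T cell subsets). Within 0.05 of these limits lay 8.06% of cells for the lead and 3.54% for the score. Counts were summed per library, over all cells and per type with at least 50 cells in every library. They were tested with edgeR 4.0.16 (filterByExpr, TMM, quasi-likelihood, two-sided, R 4.3.3), with Benjamini-Hochberg adjustment over all genes of a type, at 0.05. A difference between a type and all other gated cells was tested as an interaction with the mouse as block. The other cells were summed over types, so their mix of cell types enters the result. Alternatives were DESeq2 1.42.0, RLE factors, library size scaling, no low-count filter, a replicate block, stricter cells or gate, doublets kept, adjustment over all types, Leiden clusters and leaving out each library.

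On simulated data with 200 genes changed 2-fold, edgeR recovered 170 in all cells (of 21455 genes), with 10 false calls. It recovered 196 in venous endothelium (of 12038, 11 false calls) and 200 in alveolar fibroblasts (of 16661, 10 false calls). Of the types with a called member, only venous endothelium was simulated. How the simulated levels and spread compare with those of the real libraries is not given here. The recovery is therefore not a measure for members with few UMIs or for the real spread between libraries. Depth was 254200305 to 344421685 UMIs a library. With 3 libraries a group, p-values weigh the difference between groups against the spread between these libraries, which is estimated with information from all genes. Of 31054 features 30934 matched GENCODE M21. The arterial gate shared its Leiden name for 17.1% of cells, and no Leiden cluster took the name of type 2 conventional dendritic cells.

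The set, the marker and role lists and the tests were chosen with earlier results of these data known. Named throughout were Timp1 to Timp4, Mmp2, Mmp3, Mmp8, Mmp9, Mmp12, Mmp14, Adamts1, Adamts2 and Adamts5, every called member, the member with the most UMIs in each of 14 role groups, and, of 11 calls among other pathway genes, those with the smallest adjusted p.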

Additional observations from a re-analysis of the deposited data

Results flagged for a closer look

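The test of a difference between cell types was run in the 4 types that held a called member, not in the other 15. For 10 pairs of gene and cell type the log2 fold change of the libraries labelled p16-DTR over controls differed from that in all other gated cells of the same mice (edgeR's quasi-likelihood test of the interaction, Benjamini-Hochberg adjusted over all genes). The other cells formed 1 sum per library, so their mix of cell types enters these differences. Alveolar fibroblasts made up 15.6% to 22.4% of retained cells under the p16-DTR label and 20.7% to 32.3% in controls. The part of this mix was not tested. In pericytes, where the test called 1.11% of genes, 7 members passed. Timp3 differed by 1.16 (adjusted p = 0.000462), Adamts12 by 2.14 (adjusted p = 0.000816), Adamts2 by 1.99 (adjusted p = 0.00155) and Adamts9 by 1.52 (adjusted p = 0.00463). Adamts4, an aggrecanase, differed by 2.59 (adjusted p = 0.0206), Mmp23 by 3.25 (adjusted p = 0.0455) and Adamts1 by 1.28 (adjusted p = 0.0462). Of these, Adamts12, Adamts2, Adamts4 and Adamts1 were not called by edgeR within pericytes, and Mmp23, at means of 5.74 and 0.826 CPM, did not pass the filter on low counts there. Adamts12 stood in the other cells at a mean of 33.3 CPM against 62.5. In the same gate the smooth muscle markers summed to 1915 to 2158 CPM under the p16-DTR label and to 1346 to 1459 in controls, and smooth muscle held the highest or second highest level of Adamts12, Adamts4, Mmp23 and Adamts1. Replicate 3 labelled p16-DTR was the highest library for 10 of the 15 members tested in pericytes. The part of either in these differences was not tested. Adamts4 and Mmp23 are named because they passed this test. In peribronchial fibroblasts, where the test called 0.712% of genes, Adamts9 differed by 1.41 (adjusted p = 0.00273), Adamts10 by 0.96 (adjusted p = 0.00551) and Adamts1 by 0.81 (adjusted p = 0.00688).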

How the results depend on the processing

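All 9 calls within cell types kept their direction in each alternative that gave a value. These alternatives numbered 16 for 8 of the calls and 15 for Adamts19, which had no value with the strict gate. The groups did not overlap in any of the 9 pairs, so leaving out 1 library could hardly reverse a direction. Adjustment over all cell types left the fold changes as they were. Of the 9 calls 1, Timp3 in pericytes, was kept without each library in turn. The count of 9 became 24 with DESeq2 (beside 2.36% of all genes), 5 with adjustment over all cell types (0.256%) and 36 with no filter on low counts (1.98% of 384936 tests against 223950), and ranged from 2 (0.116%) to 15 (0.666%) when 1 library was left out. The cause was not tested. With all cells summed, edgeR called 0 members in each alternative and DESeq2 called 5. Of the 9 calls, 4 differed from all other gated cells, and 2 did with Leiden clusters. The labels do not state that replicate numbers pair the libraries. Same-numbered deviations correlated at 0.130, -0.00488 and 0.0974, and differently numbered ones at -0.155 to 0.0696. These few values do not settle whether the numbers pair the libraries. A replicate block gave 15 calls (0.659% of all genes), which held 7 of the 9. It lost Adamts1 in venous endothelium (-0.43, edgeR adjusted p = 0.0676) and Mmp28 in general capillary endothelium (0.70, edgeR adjusted p = 0.111). Of 18 named genes in all cells, none of them called by edgeR, 9 changed sign in some fit. Mmp2 became -0.00695 with doublets kept and -0.0257 with library size scaling, and Adamts9 became -0.00565 with library size scaling. When 1 library was left out, the log2 fold change ranged from -0.0958 to 0.469 for Timp1, -0.0520 to 0.0518 for Timp3, -0.124 to 0.285 for Mmp2, -0.275 to 0.0563 for Mmp3, -0.275 to 0.0702 for Mmp14, -0.300 to 0.0303 for Adamts2, -0.195 to 0.0902 for Adamts10, -0.697 to 0.0171 for Adamts19 and -0.0448 to 0.140 for Adamts9. Depth limits the rarest genes, as Mmp1b, Mmp7 and Mmp20 had 29, 20 and 20 UMIs in all cells.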
